A study of Mus musculus with 12 samples.

Results

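Gene expression was compared between the 2 end pieces of the posterior neural tube of the mouse embryo, the tissue that becomes the spinal cord. The comparison was of the 2 arrays titled part 6 with the 2 arrays titled part 1, chosen by title alone, 4 of the 12 arrays of the study. All embryos were of the outbred CD1 strain at 9.5 days post-coitus, with no treatment or genetic change listed, and the labels separate the groups by position only. Both ends share the dissection. Embryos spent 1 min in pancreatin at 2 mg per ml, which digests the contacts between tissues. Ectoderm, endoderm and lateral plate were then taken away with needles, and the tube was divided into 6 pieces. The labels do not say which number is the caudal piece, and levels are given by part number. Each piece has 1 array from each of 2 embryos, and the replicate number marks the embryo, so that each value rests on 1 small piece of 1 embryo, whose RNA was amplified in 2 cycles before labelling. Wherever 4 signals of a gene are given, the replicate 1 array comes first and the replicate 2 array second within each piece.

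The vertebrate body axis lengthens from a caudal growth zone, where FGF and Wnt signals keep progenitors of spinal cord and mesoderm in an immature state. Retinoic acid made by the neighbouring somites acts against those signals. Cells that leave the zone take on neural identity, then dorsal or ventral fates under BMP and Wnt signals from the roof and Hedgehog signals from the floor. Hox genes give the tissue its level along the axis, the groups of higher number being used further caudally. The comparison of both ends asks which functions, among these and beyond them, separate the 2 extremes of the dissected tube.

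Signals are linear MAS5 array intensities. Differences are part 6 minus part 1 on the log2 scale of the signal plus an offset of 4.43, given with their standard error (SE) from limma, a linear model with moderated errors fitted over all 12 arrays. On this scale the change of a dim gene is compressed, and very low signals cannot be ranked. A gene is called higher or lower when its limma p, adjusted by Benjamini-Hochberg over the 12089 genes tested, is below 0.05, and every adjusted p below is of this kind. With n = 2 arrays per piece, these p-values rest on the spread between 2 embryos, pooled over all pieces and moderated across genes. They do not measure the spread at the ends alone. The fit takes the pieces of an embryo as independent, although arrays of the same replicate number correlated (0.175 to 0.325 after subtraction of the piece means).

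In all, 1088 genes were called, 9% of those tested. Of these, 500 (4.14%) were higher in part 6 and 588 (4.86%) were lower. Among the 1088, 802 genes (6.63% of those tested) had a difference of at least 1 log2, 363 of them higher (3%) and 439 lower (3.63%). The median size of the difference was 1.43 log2 among the higher genes and 1.40 among the lower genes. The difference was under 1 log2 for 137 and 149 of them, and it was 3 log2 or more for 53 and 58. All 500 and all 588 had the same sign in both embryos and no overlap between the arrays of the 2 ends. The calls were made from these same arrays, which favours genes of that kind. The agreement is thus no separate evidence, here or for single genes below. Over all tested genes, 63.2% had the same sign in both embryos, part 6 lay above part 1 without overlap for 20.2%, and below it for 26.7%. Bulk arrays cannot tell fewer cells of a type from less RNA per cell, and this holds for every difference given here.

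**Figure D1:**
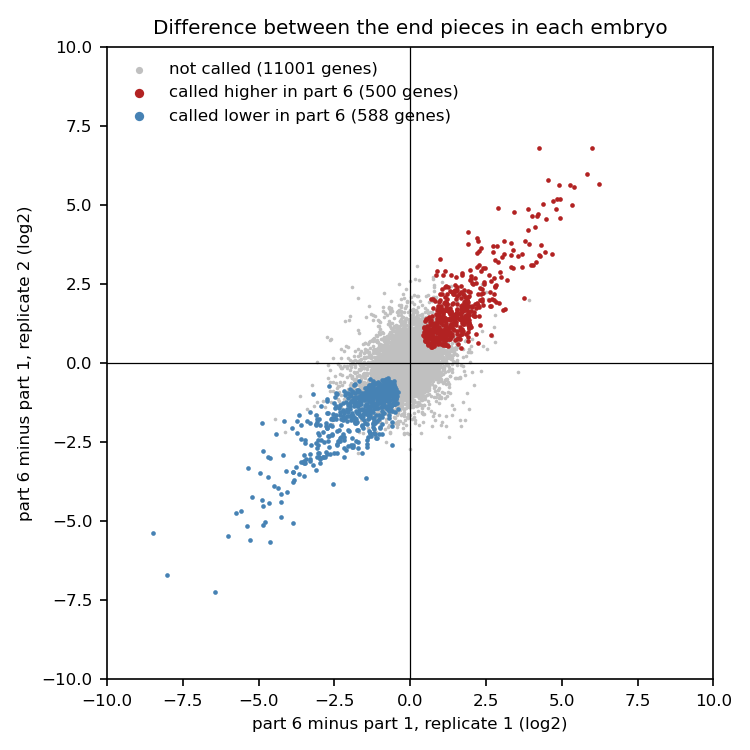
Difference between part 6 and part 1 (log2) of each tested gene in replicate 1 (horizontal axis) and in replicate 2 (vertical axis), with grey points for genes not called and colours for the 500 genes called higher and the 588 called lower in part 6. All coloured points lie in the quadrants where both embryos have the same sign, and the calls were made from these same arrays.

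The differences of the 2 embryos correlated across genes with Pearson's r of 0.65, a description over genes, which are not independent and share their arrays. Of 774 genes that moved by 1 log2 or more in each embryo, 741 moved the same way and 33 moved opposite ways. The calls depend on single arrays. Leaving out part 1 replicate 1 gave 740 higher and 550 lower genes, and leaving out part 1 replicate 2 gave 461 and 719. Leaving out part 6 replicate 1 gave 604 calls in all and leaving out part 6 replicate 2 gave 483. A core of 384 genes, 203 higher and 181 lower, was called in the full data and after the loss of any one of the 4 end arrays. Genes below belong to that core unless a loss is stated, in which case the highest adjusted p among those 4 settings is given.

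The same genes can be set beside an inner comparison, part 5 against part 2, which shares no array with the ends but does share both embryos and the estimate of the spread. Part 5 against part 2 called 257 genes, 2.13% of those tested, 130 of them higher in part 5 (1.08%) and 127 lower (1.05%). Of the 500 genes higher in part 6, 466 (93.2%) were also higher in part 5 than in part 2, beside 50.96% of all genes. Of the 588 lower genes, 548 (93.2%) were lower in part 5, beside 49.04% of all genes. The inner differences were smaller, with medians of 0.66 log2 for the higher genes and -0.69 for the lower genes. Among the calls, 123 higher and 108 lower genes were also called between the inner pieces, and 0 were called in the opposite direction by limma.

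**Figure D2:**
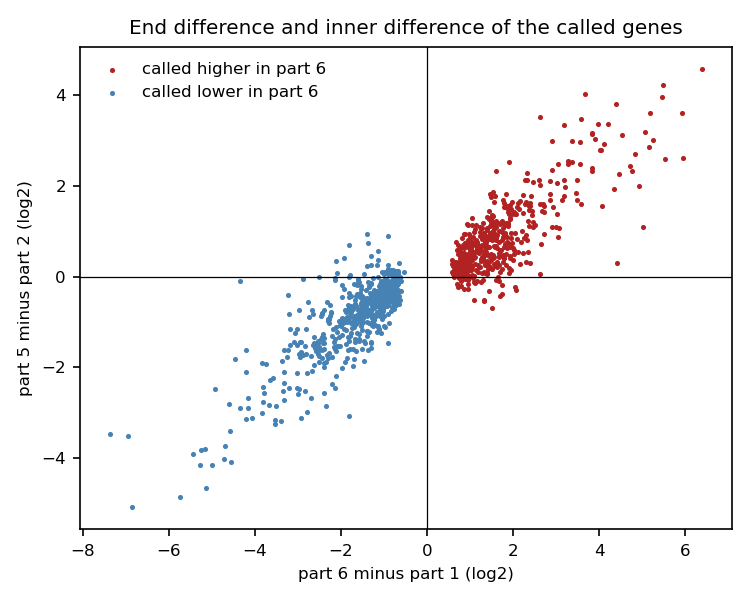
Difference between part 5 and part 2 (log2, vertical axis) against the difference between part 6 and part 1 (log2, horizontal axis) for the 1088 called genes, coloured by the direction at the ends. Of the genes higher in part 6, 466 of 500 lie above 0 on the vertical axis, and of those lower in part 6, 548 of 588 lie below it.

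The label of neural tube was checked against markers. Of 14 tested genes of neural tube identity, 9 were called, 7 of them higher in part 6. Sox2, which with its relatives Sox1 and Sox3 maintains neural progenitors, had signals of 199 and 286 in part 1 and 1426 and 1611 in part 6, a difference of 2.64 ± 0.22 log2 (adjusted p = 0.000104). Sox1 had signals of 11.4 and 32.3 in part 1 and 398 and 396 in part 6, a difference of 4.06 ± 0.44 (adjusted p = 0.000509). Both part 6 arrays stood far above both part 1 arrays, and the part 1 arrays carried Sox2 at a lower level. The RNA-binding protein gene Msi1, another progenitor marker, differed by 1.79 ± 0.21 (adjusted p = 0.000829), and Sox3 by 2.02 ± 0.30 (adjusted p = 0.00283). Pax6, a homeobox gene of the neural tube that is switched on as progenitors mature, had signals of 17.2 and 34.2 in part 1 and 354 and 329 in part 6 and differed by 3.58 ± 0.26 (adjusted p = 3.61e-05). Fabp7, a fatty acid binding protein of neural progenitors, and Vim, an intermediate filament gene, were the only members lower in part 6 (-3.22 ± 0.67, adjusted p = 0.0166, and -1.11 ± 0.30, adjusted p = 0.0482), and these were named after their values were seen. The Fabp7 call was lost without any one of the 4 end arrays and that of Vim without either part 1 array or part 6 replicate 2 (adjusted p up to 0.109 and 0.304).

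Markers of tissues that the needles were meant to remove, or that lie beside the tube, differed between the ends as well. Of 11 presomitic mesoderm genes, 5 were lower in part 6. The summed signal of all 11 was 6104 and 4260 in part 1 and 1233 and 1202 in part 6, and the part 6 sums came mostly from Pcdh8. Pcdh8, a protocadherin of the same list, went the other way, with signals of 37.4 and 2.09 in part 1 and 788 and 730.3 in part 6 (5.53 ± 1.49 log2, adjusted p = 0.0493), and its call was lost without any one of the 4 arrays (adjusted p up to 0.187). The mesoderm factor Msgn1 had signals of 23.1 and 28.5 in part 1 and 3.17 and 5.43 in part 6, a low level throughout. Tbx6, which directs presomitic mesoderm, had signals of 518 and 188 in part 1 and 12.5 and 12.9 in part 6 (call lost without part 1 replicate 1 or part 6 replicate 2, adjusted p up to 0.0556). The part of these cells in the end differences was not tested.

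Of 11 surface ectoderm genes, 5 were lower in part 6. These were the keratins Krt8 (-2.80 ± 0.57, adjusted p = 0.0151, lost without part 1 replicate 1 or either part 6 array, up to 0.08) and Krt18 (-1.83 ± 0.32, adjusted p = 0.00777, lost without part 6 replicate 2, 0.0569), the adhesion genes Epcam (-3.06 ± 0.57, adjusted p = 0.0096, lost without part 1 replicate 1 or part 6 replicate 2, up to 0.0757) and Cdh1, described with the epithelial list, and the transcription factor gene Grhl3 (-1.50 ± 0.38, adjusted p = 0.0392, lost without part 1 replicate 1 or part 6 replicate 2, up to 0.256). The summed signal of all 11 was 1524 and 563 in part 1 and 403 and 484 in part 6, and part 1 replicate 1 was the highest array. The epidermal markers Trp63 and Krt14 did not pass the filter, with signals of at most 17.2 in the end arrays. Of 9 endothelial genes, 4 were lower. They were the blood and endothelial factor Lmo2 (-4.72 ± 0.38, adjusted p = 8.15e-05), the receptors S1pr3 and Aplnr, and Robo4 (-1.19 ± 0.27, adjusted p = 0.0234, lost without part 1 replicate 1 or either part 6 array, up to 0.12). The sums over the 9 genes were 5099 and 2040 in part 1 and 176 and 148 in part 6. Most of the part 1 sums came from S1pr3 and Aplnr. The endothelial markers Pecam1, Cdh5, Tie1, Flt1, Tek, Esam, Emcn, Sox17 and Tal1 did not pass the filter. Their signals in the end arrays were at most 18.2, that of Sox17 in part 6 replicate 2. Of 7 blood genes, limma called 0, with 0 at an unadjusted p under 0.05 and 0 with the embryo as a block, and the sums were 153 and 10041 in part 1 and 203 and 6399 in part 6, so that both replicate 2 arrays of the ends were high and both replicate 1 arrays low. That order did not hold in all pieces, since the blood sums were 6235 and 2904 in part 2, replicate 1 first. Among 4 notochord markers 1 was called, the keratin gene Krt8 given above, which is also on the surface ectoderm list. The other calls among tissue markers were the somite genes Tcf15 (-1.15 ± 0.27, adjusted p = 0.0259, lost without any one end array, up to 0.166) and Aldh1a2 in opposite directions, and the lower Cldn6 (-1.79 ± 0.44, adjusted p = 0.0336, lost without part 1 replicate 1 or part 6 replicate 2, up to 0.224) of the gut list and Phox2a (-1.29 ± 0.29, adjusted p = 0.0217, lost without part 1 replicate 1 or either part 6 array, up to 0.117) of the brain list. Lists of lateral plate, germ cells and macrophages had 0 calls by limma, with 0, 2 and 1 at an unadjusted p under 0.05 and 0 with the embryo as a block. Of 6 sex-linked genes limma called 0, with 0 at an unadjusted p under 0.05 and 0 with the embryo as a block. Xist, which silences the X chromosome in females, had signals of 650.5 and 29.7 in part 1 and 869.7 and 24.5 in part 6, so that it separated the embryos in both ends. The part of these tissues in the differences was not tested.

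**Figure D3:**
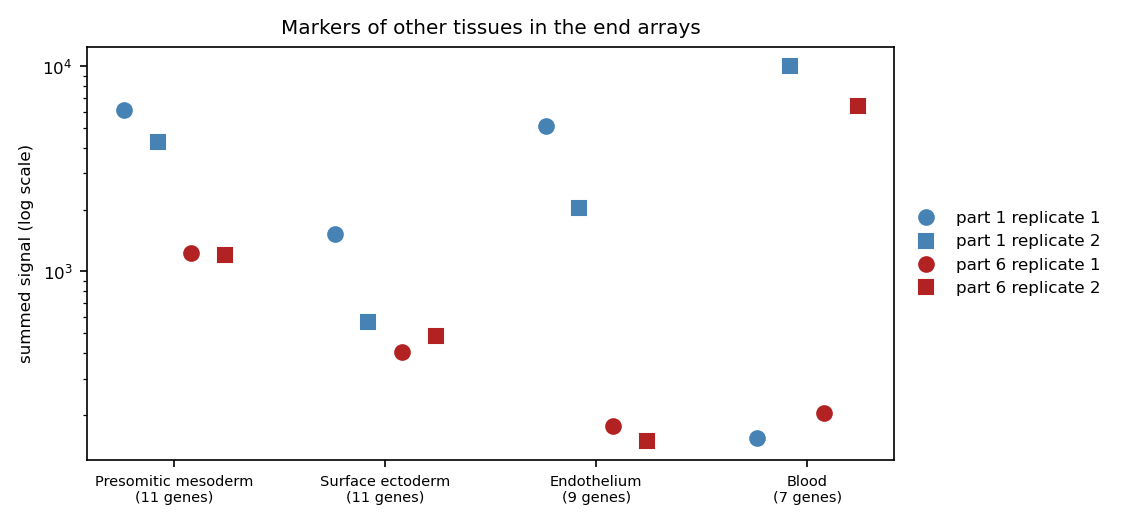
Summed signal of the tested markers of presomitic mesoderm, surface ectoderm, endothelium and blood in the 4 end arrays (logarithmic axis), with 1 point per array. Presomitic mesoderm and endothelial markers are higher in both part 1 arrays, while blood markers are high in the replicate 2 arrays of both ends.

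Transcription factors of neural progenitors were more abundant in part 6. Of 24 tested, 17 were called, all higher in part 6 and 13 of them in the core, with a median difference of 1.94 log2 over the 24 beside -0.06 over all genes. Tshz1, a zinc finger factor, had signals of 68.7 and 85.9 in part 1 and 936 and 982 in part 6, a difference of 3.57 ± 0.21 (adjusted p = 1.04e-05). Sox21, which promotes the exit of progenitors toward neurons, had signals of 26.3 and 38.5 in part 1 and 392 and 349 in part 6, a difference of 3.36 ± 0.28 (adjusted p = 8.84e-05). Within single embryos, Tshz1 differed by 3.69 in replicate 1 and 3.45 in replicate 2. The homeobox genes Irx3 (5.91 ± 0.17, adjusted p = 3.55e-07) and Irx5 (5.26 ± 0.34, adjusted p = 2.19e-05), the regulatory factor Rfx4 (6.40 ± 0.33, adjusted p = 7.18e-06) and the nuclear receptor Nr2f2 (4.42 ± 0.28, adjusted p = 1.92e-05) complete the strongest members. In every one of them both part 1 arrays lay below both part 6 arrays.

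Ventral genes followed with 11 of 17 called, all higher in part 6, and a median of 1.81 log2. Scube2, which helps release Hedgehog protein from the cells that make it, had signals of 6.51 and 4.76 in part 1 and 421 and 454 in part 6, a difference of 5.46 ± 0.18 (adjusted p = 6.02e-07). Boc, a co-receptor for Hedgehog, had signals of 50.3 and 29.8 in part 1 and 217 and 226 in part 6, a difference of 2.38 ± 0.22 (adjusted p = 0.000177). Ventral progenitor factors had low signals in part 1. Nkx6-1 had signals of 1.88 and 0.909 in part 1 and 90.9 and 68.3 in part 6 and Dbx1 of 7.27 and 3.46 in part 1 and 25.9 and 24.3 in part 6, and the adhesion protein gene Spon1, known from the floor plate, had signals of 9.35 and 20.8 in part 1 and 216 and 212 in part 6. The 3 differed by 3.84 ± 0.24, 1.62 ± 0.22 and 3.55 ± 0.31 (adjusted p = 1.92e-05, 0.00203 and 0.000126).

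Of 15 dorsal and roof plate genes, 6 were higher in part 6 and 1 was lower. Gdf10, a secreted BMP family member, had signals of 10.1 and 10.9 in part 1 and 248 and 296 in part 6, a difference of 4.21 ± 0.22 (adjusted p = 8.75e-06). Zic1, a zinc finger factor of dorsal neural tube, had signals of 0.923 and 1.11 in part 1 and 108 and 179 in part 6 (4.72 ± 0.48, adjusted p = 0.000318). Pax3, a paired-box factor of dorsal progenitors, had signals of 279 and 232 in part 1 and 911 and 1112 in part 6 (1.97 ± 0.28, adjusted p = 0.00253). Olig3 and Wnt1 were also higher, by 3.83 ± 0.35 and 2.60 ± 0.29 (adjusted p = 0.000177 and 0.000545). The lower member was Wnt3a, a Wnt ligand of both the roof plate and the caudal growth zone, with signals of 305 and 149 in part 1 and 47.7 and 26.9 in part 6 (-2.43 ± 0.49, adjusted p = 0.0143). Its call was lost without part 1 replicate 1 or part 6 replicate 2 (adjusted p up to 0.114). Apart from Wnt3a, the called dorsal genes and the called ventral genes were thus higher in the same piece.

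Of 21 proneural and early neuron genes, 6 were higher and 3 lower, so that this list split. Neurog2 and Neurog1, proneural factors that start neuron production, were higher in part 6. Neurog2 had signals of 0.341 and 2.52 in part 1 and 354 and 349 in part 6 (5.95 ± 0.24, adjusted p = 1.72e-06). Neurog1 had signals of 0.375 and 0.608 in part 1 and 101 and 53.1 in part 6 (3.98 ± 0.54, adjusted p = 0.00177). Members with a role in neurons that were lower in part 6 were Gad1, Mnx1 and Stmn2. Gad1, which makes the transmitter GABA, had signals of 989 and 475 in part 1 and 14.1 and 13.5 in part 6 (-5.24 ± 0.36, adjusted p = 3e-05). Mnx1, a homeobox gene of motor neurons and of the notochord and tail, had signals of 139.7 and 156 in part 1 and 1.25 and 3.03 in part 6 (-4.54 ± 0.37, adjusted p = 7.93e-05). Stmn2, a microtubule regulator of growing axons, differed by -1.23 ± 0.23 (adjusted p = 0.0103), a call lost without part 6 replicate 2 (adjusted p = 0.0941).

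Of 17 neural crest genes, 7 were called, all higher in part 6, with a median of 0.91 log2 over the list. Foxd3, a forkhead factor of early crest, had signals of 1.91 and 2.40 in part 1 and 83 and 95.8 in part 6 (3.83 ± 0.41, adjusted p = 0.000478). Ednrb, the endothelin receptor of crest cells, had signals of 1.06 and 1.62 in part 1 and 219 and 191 in part 6 (5.18 ± 0.38, adjusted p = 4.43e-05). Cdh6, a cadherin of crest and of the dorsal tube, differed by 2.28 ± 0.21 (adjusted p = 0.000185). The 4 other calls were not in the core, and Sox9 among them had signals of 16.6 and 8.93 in part 1 and 124 and 48.8 in part 6 and lost its call without part 1 replicate 1, part 1 replicate 2 or part 6 replicate 1 (adjusted p up to 0.215).

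Of 20 tested genes of the caudal growth zone, 8 were lower in part 6, 1 was higher and 11 were not called, with a median of -0.82 log2. The list holds mainly transcription factors. The ligand Fgf8 is on it too, as 1 of the 8 lower genes, and is counted again with the FGF ligands. Evx1, a homeobox gene of the tail bud, had signals of 580.2 and 515 in part 1 and 30.6 and 26.2 in part 6, a difference of -4.07 ± 0.23 (adjusted p = 1.03e-05). Cdx2 and Cdx4 are caudal homeobox factors that act upstream of Hox genes. Cdx2 had signals of 1202 and 1039 in part 1 and 196 and 217 in part 6. Cdx4 had signals of 648 and 1021 in part 1 and 140.0 and 154 in part 6. They differed by -2.41 ± 0.29 and -2.43 ± 0.28 (adjusted p = 0.000805 and 0.000715), and part 6 kept clear signal of both. Mixl1, a homeobox gene of the primitive streak, had signals of 254 and 174 in part 1 and 1.88 and 13.4 in part 6 (-4.34 ± 0.67, adjusted p = 0.0038). The member that was higher in part 6 was Nr6a1, a nuclear receptor involved in trunk development, with signals of 65.1 and 36 in part 1 and 505 and 518 in part 6 (3.28 ± 0.27, adjusted p = 0.000103). Summed presomitic mesoderm markers were lower in part 6 as well, at the sums given above.

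**Figure D4:**
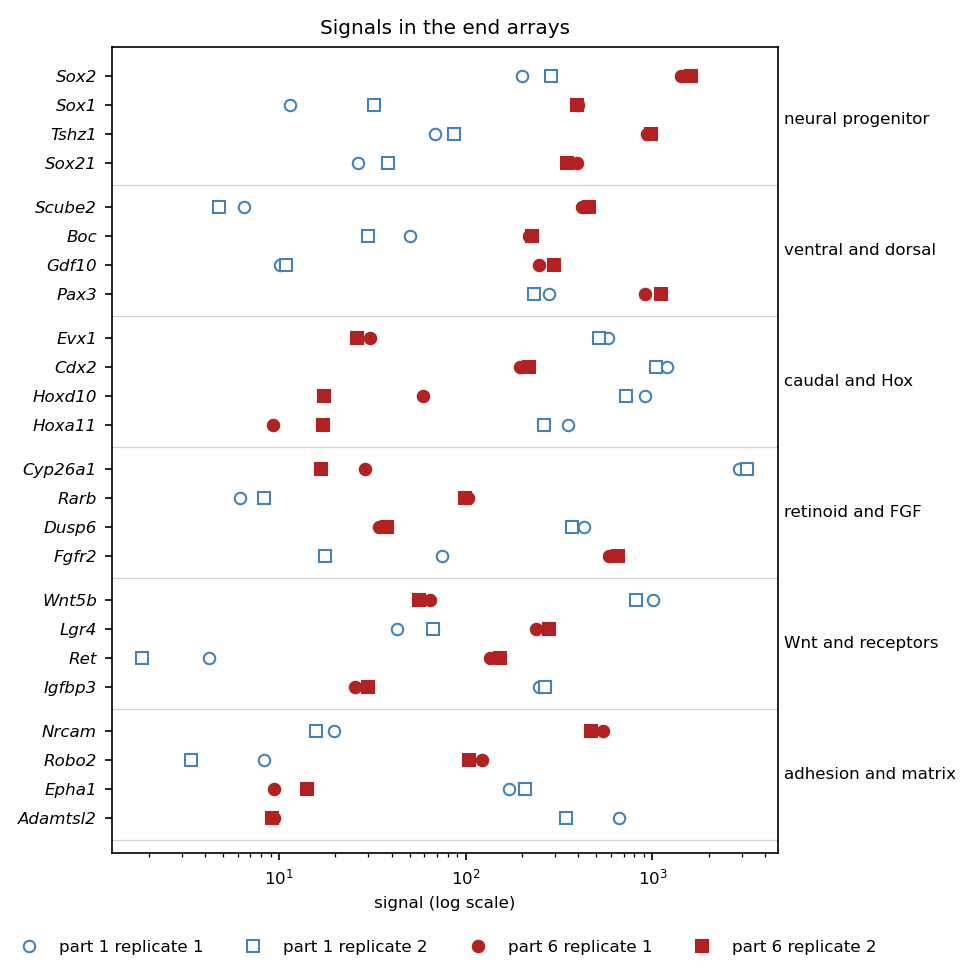
Signal (logarithmic axis) of 24 genes in the 4 end arrays, with open symbols for part 1 and filled symbols for part 6, circles for replicate 1 and squares for replicate 2, grouped by function. For each gene both symbols of one end lie on the same side of both symbols of the other, and all 24 were chosen from the called genes.

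Of 13 tested Hox genes of groups 1 to 5, 1 was lower in part 6 (2 with the embryo as a block), with a median over the 13 of -0.06 log2. Of 9 genes of groups 6 to 9, 5 were lower, with a median of -0.73, and 0 of the 5 were in the core, so each rests on particular arrays. Of 6 genes of groups 10 to 13, 5 were lower, with a median of -3.68. Hoxd10 had signals of 915 and 722 in part 1 and 58.9 and 17.4 in part 6 (-4.46 ± 0.48, adjusted p = 0.00046), Hoxd11 of 81.2 and 57 in part 1 and 0.29 and 3.83 in part 6 (-3.54 ± 0.39, adjusted p = 0.000538). Hoxa11 had signals of 354 and 262 in part 1 and 9.32 and 17.3 in part 6 (-4.16 ± 0.62, adjusted p = 0.00312). Both part 1 arrays were above both part 6 arrays for these 3 genes. The one gene of the lowest groups was Hoxd1, with signals of 332 and 268 in part 1 and 104 and 93 in part 6 (-1.56 ± 0.19, adjusted p = 0.000837). The remaining lower genes of the highest groups were Hoxd13 (-3.82 ± 0.72, adjusted p = 0.0104, lost without part 1 replicate 1 or part 6 replicate 1, up to 0.0724) and Hoxc10 (-1.21 ± 0.25, adjusted p = 0.0171, lost without part 1 replicate 1 or part 6 replicate 2, up to 0.128). In groups 6 to 9, Hoxc6 had signals of 441 and 279.6 in part 1 and 118 and 106 in part 6. The 5 calls were Hoxc6 (-1.61 ± 0.33, adjusted p = 0.0158, lost without part 1 replicate 1 or either part 6 array, up to 0.102), Hoxa7 (-1.60 ± 0.35, adjusted p = 0.0205, lost without part 1 replicate 1 or part 6 replicate 2, up to 0.154), Hoxd8 (-0.73 ± 0.18, adjusted p = 0.0331, lost without any one end array, up to 0.16), Hoxb9 (-2.11 ± 0.53, adjusted p = 0.039, lost without any one end array, up to 0.244) and Hoxd9 (-0.81 ± 0.22, adjusted p = 0.0497, lost without part 1 replicate 1 or either part 6 array, up to 0.302).

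Of 7 genes for cofactors of Hox proteins, 4 were called, all higher in part 6. Meis1 had signals of 11.9 and 14.3 in part 1 and 452 and 541 in part 6 (4.83 ± 0.28, adjusted p = 1.04e-05). Meis2 had signals of 81.4 and 37.8 in part 1 and 1989 and 2329 in part 6 (5.16 ± 0.54, adjusted p = 0.00037). The other two, Pbx3 and Pknox2, differed by 2.06 ± 0.41 and 1.14 ± 0.24 (adjusted p = 0.0131 and 0.0171), calls lost without either part 6 array and, for Pknox2, also without part 1 replicate 2 (adjusted p up to 0.0849 and 0.103).

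Retinoic acid genes were called in both directions. Of 16 tested, 5 were higher in part 6 and 2 were lower, and the list's differences ran from -6.85 to 4.76 log2. Cyp26a1, the enzyme that breaks retinoic acid down, and Rarb, a retinoic acid receptor, are both known to respond to retinoic acid itself. Their upstream sequences are shown because, of 19 genes of the list with a RefSeq promoter window, they were the 2 that held the direct repeat searched for on either strand, GTTCA, then 5 bases of any kind, then AGTTCA. Among all 27025 genes with a window of 250 bases before and 50 after the start, 11 held it (0.0407%), as did 1 of 382 genes called higher and 1 of 443 called lower. The 250 bases before each start are given 5′ to 3′ on the gene's strand, from RefSeq's GRCm38.p6 annotation, with the motif in capitals.
Cyp26a1, chr19:37697558-37697807, plus strand: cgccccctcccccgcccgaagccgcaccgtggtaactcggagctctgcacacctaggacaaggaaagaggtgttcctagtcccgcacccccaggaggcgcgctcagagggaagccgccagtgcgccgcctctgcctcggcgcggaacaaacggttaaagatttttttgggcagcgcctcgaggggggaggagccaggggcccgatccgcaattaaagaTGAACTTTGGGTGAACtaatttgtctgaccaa
Rarb, chr14:16575477-16575726, minus strand: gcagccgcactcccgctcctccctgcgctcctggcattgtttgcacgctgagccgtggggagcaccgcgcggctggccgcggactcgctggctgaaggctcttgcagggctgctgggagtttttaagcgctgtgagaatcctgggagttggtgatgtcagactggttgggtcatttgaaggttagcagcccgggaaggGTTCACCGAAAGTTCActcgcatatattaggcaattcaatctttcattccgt
In the Cyp26a1 window the repeat lies 32 to 17 bases before the start and reads on the opposite strand, and in the Rarb window it lies 52 to 37 bases before the start on the gene's own strand. A match of letters is a description and not a measured binding site. The repeat searched for is a retinoic acid response element. Its presence in genes known to respond to retinoic acid is thus no separate evidence.

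These genes, which share the repeat, had opposite differences between the ends. Cyp26a1 had signals of 2899 and 3217 in part 1 and 28.7 and 16.7 in part 6, a difference of -6.85 ± 0.38 (adjusted p = 1.03e-05). Rarb had signals of 6.18 and 8.28 in part 1 and 103 and 99 in part 6, a difference of 3.18 ± 0.28 (adjusted p = 0.000134). Between the ends, Cyp26a1 had signals of 1709.5 and 2358 in part 2 and 79.4 and 38.1 in part 5, and Rarb of 5.53 and 12.1 in part 2 and 36.2 and 43 in part 5, so that the inner pieces had the same order. Aldh1a2, which makes retinoic acid and is also a somite marker, had signals of 15.6 and 20.2 in part 1 and 613 and 587 in part 6 (4.76 ± 0.43, adjusted p = 0.000176). Among the receptors, Rarg was lower in part 6, with signals of 335 and 198 in part 1 and 109 and 95 in part 6 (-1.31 ± 0.24, adjusted p = 0.00945), and its call was lost without part 6 replicate 2 (adjusted p = 0.0774). Rarb and Rarg, receptors for the same ligand, thus differed in opposite directions between the ends, while their signals in part 6 were similar.

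Of 13 tested genes of FGF ligands and their binding proteins, 4 were lower in part 6, 2 were higher and 7 were not called, and all 6 calls were in the core. The secreted ligands Fgf17, Fgf8, Fgf3 and Fgf18 were the lower ones. Fgf3 had signals of 111 and 64.5 in part 1 and 14.1 and 13.2 in part 6 (-2.30 ± 0.34, adjusted p = 0.00307). Fgf18 had signals of 56.3 and 29.9 in part 1 and 9.80 and 7.53 in part 6 (-1.81 ± 0.29, adjusted p = 0.00445). Fgf17 differed by -5.15 ± 0.35 and Fgf8 by -4.15 ± 0.48 (adjusted p = 2.51e-05 and 0.000666). The higher members are of other kinds. Fgf14, an intracellular relative that binds sodium channels, had signals of 6.61 and 4.67 in part 1 and 338 and 328 in part 6 (5.07 ± 0.22, adjusted p = 2.5e-06). Fgfbp3, an FGF binding protein, had signals of 21.6 and 16.6 in part 1 and 266 and 247 in part 6 (3.48 ± 0.18, adjusted p = 7.18e-06).

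Of 23 tested receptors, feedback genes and targets of the FGF pathway, 4 were higher, 6 lower and 13 not called. Dusp6, a phosphatase that switches off ERK, had signals of 428 and 369.8 in part 1 and 34.3 and 37.7 in part 6 (-3.31 ± 0.19, adjusted p = 1.04e-05). Il17rd, a membrane inhibitor of FGF signalling, had signals of 1750.4 and 1821 in part 1 and 154 and 308 in part 6 (-3.01 ± 0.28, adjusted p = 0.000185). The feedback genes Spry4 and Dusp4 were lower as well, with differences of -2.63 ± 0.28 and -1.87 ± 0.23 (adjusted p = 0.000444 and 0.00102). Fgfr2, a receptor, was higher in part 6, with signals of 74.2 and 17.6 in part 1 and 585 and 657 in part 6 (3.91 ± 0.49, adjusted p = 0.00108). The other 3 higher members, named after their values were seen, were the receptors Fgfr3 (1.84 ± 0.24, adjusted p = 0.00135) and Fgfr4 (1.58 ± 0.35, adjusted p = 0.0208) and the growth regulator Mycn (1.24 ± 0.20, adjusted p = 0.00522). The Fgfr4 call was lost without replicate 1 of either end (adjusted p up to 0.131), and that of Mycn in the fit of the end arrays alone.

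Of 34 tested Wnt ligands and receptors, 9 were higher, 7 lower and 18 not called, and 9 of the 16 were in the core. Wnt5b, a ligand that acts mainly outside the beta-catenin route, had signals of 1009 and 813 in part 1 and 64.5 and 56.1 in part 6 (-3.82 ± 0.19, adjusted p = 6.69e-06). Wnt5a, its close relative, had signals of 1331 and 1097 in part 1 and 326 and 244 in part 6 (-2.08 ± 0.22, adjusted p = 0.000456). Rspo3, a secreted enhancer of Wnt signalling, differed by -4.57 ± 0.32 (adjusted p = 3.21e-05). Among the higher genes, Lgr4, a receptor for R-spondins, had signals of 42.9 and 66.3 in part 1 and 238 and 281 in part 6 (2.18 ± 0.21, adjusted p = 0.000249). The Frizzled receptor gene Fzd9 had signals of 18 and 21 in part 1 and 76.3 and 66.7 in part 6 (1.67 ± 0.18, adjusted p = 0.000491). The one ligand called higher was Wnt1, described with the dorsal genes. Of 21 antagonists and targets, 3 were higher and 3 lower. Dkk2, a secreted modulator of Wnt receptors, had signals of 46.5 and 37.2 in part 1 and 1.91 and 1.34 in part 6 (-2.93 ± 0.47, adjusted p = 0.00454). Apcdd1, a membrane inhibitor, differed by -1.84 ± 0.18 (adjusted p = 0.000293). Sfrp2, a secreted Wnt binder, went the other way and differed by 1.51 ± 0.21 (adjusted p = 0.00201).

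Of 33 genes of BMP, activin and TGF-beta signalling, 5 were higher and 1 lower. Besides Gdf10, the higher members included Grem1, a secreted BMP antagonist, with signals of 4.99 and 6.66 in part 1 and 69.5 and 77 in part 6 (2.92 ± 0.23, adjusted p = 7.93e-05). Acvr2a, an activin receptor, had signals of 92.1 and 102 in part 1 and 258 and 285 in part 6 (1.44 ± 0.17, adjusted p = 0.000749). The BMP target Id3 and the activin antagonist Fst differed by 1.23 ± 0.27 and 1.75 ± 0.45 (adjusted p = 0.0206 and 0.0409), and both calls were lost without any one of the 4 arrays (adjusted p up to 0.127 and 0.199). The lower member was Bambi, a decoy receptor, with signals of 121 and 111 in part 1 and 33.6 and 41.6 in part 6 (-1.52 ± 0.21, adjusted p = 0.00221).

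Of 24 Notch genes, 2 were higher and 3 lower. The targets of the pathway differed in direction. Hes5, the target of neural progenitors, was higher in part 6, with signals of 86.4 and 152 in part 1 and 1619 and 1415 in part 6 (3.67 ± 0.26, adjusted p = 3.61e-05). Hes7, the target of the segmentation clock, was lower, with signals of 1419 and 834 in part 1 and 17.6 and 14.6 in part 6 (-5.74 ± 0.36, adjusted p = 1.93e-05). The receptor Notch2 had signals of 311 and 217 in part 1 and 603 and 685 in part 6 (1.29 ± 0.20, adjusted p = 0.00368). Its call was lost when probe sets were averaged and when the fit used the end arrays alone. Notch4, a receptor known from endothelium, and the ligand Dll3 were lower, with differences of -2.39 ± 0.50 and -3.01 ± 0.64 (adjusted p = 0.0175 and 0.0178), calls lost without part 1 replicate 1 or either part 6 array (adjusted p up to 0.0907 and 0.0966).

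Other receptors and their ligands were called at both ends. Of 34 receptor tyrosine kinases and their ligands, 7 were higher and 5 lower. Ret and Gfra3, which together form receptors for ligands of the GDNF family, were both higher, with signals of 4.20 and 1.84 in part 1 and 135 and 153 in part 6 for Ret and of 38.9 and 41.6 in part 1 and 226 and 210.3 in part 6 for Gfra3. They differed by 4.33 ± 0.25 and 2.32 ± 0.16 (adjusted p = 1.04e-05 and 3.19e-05). The insulin-like growth factor Igf2, an imprinted gene, was lower in part 6, with signals of 1064 and 695 in part 1 and 185 and 255 in part 6 (-1.96 ± 0.30, adjusted p = 0.00345). So was Igfbp3, which binds it, with signals of 246 and 266 in part 1 and 25.5 and 29.8 in part 6 (-3.03 ± 0.34, adjusted p = 0.000617). Of 32 G protein-coupled receptors, 5 were higher and 3 lower, 2 of the 8 in the core. Those were Ednrb and Gpr83, of which the latter had signals of 183 and 145 in part 1 and 22.3 and 14.8 in part 6 (-2.89 ± 0.31, adjusted p = 0.000452). The receptors S1pr3 and Aplnr had the largest differences of the list (-7.36 and -6.94 log2), but their part 1 arrays were far apart (1532 and 582 in part 1 and 1.51 and 1.18 in part 6, and 2741 and 632 in part 1 and 3.20 and 10.9 in part 6). The call of S1pr3 was lost without part 1 replicate 1 or either part 6 array and that of Aplnr without any one of the 4 (adjusted p up to 0.0686 and 0.175).

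Most adhesion genes of the nervous system were not called, and those called were mainly higher in part 6. Of 24 immunoglobulin family and related genes, 3 were higher, 1 was lower and 20 were not called. That is a share of 16.7% called, beside 9% of all genes, with a median of 0.15 log2 over the 24. Nrcam, a neuronal cell adhesion molecule, had signals of 19.8 and 15.7 in part 1 and 541 and 469 in part 6 (4.52 ± 0.19, adjusted p = 2.21e-06). Ndnf, a secreted neurotrophic factor, had signals of 8.28 and 8.34 in part 1 and 537 and 596 in part 6 (5.48 ± 0.22, adjusted p = 1.72e-06). Lrrtm1, a synaptic adhesion protein gene, had signals of 0.376 and 0.812 in part 1 and 39.5 and 28.2 in part 6 (2.92 ± 0.37, adjusted p = 0.00115). The lower member was Tenm2, a teneurin, whose call was lost without part 1 replicate 1 or either part 6 array (-1.51 ± 0.37, adjusted p = 0.0319, and up to 0.172). Of 22 cadherins, 6 were higher, 3 lower and 13 not called, and Cdh6 alone was in the core. The median over the 22 was 0.04 log2. Cdh11, a cadherin of mesenchyme, had signals of 498 and 543 in part 1 and 213 and 211 in part 6 (-1.28 ± 0.24, adjusted p = 0.00939), with its call lost without either part 6 array (adjusted p up to 0.0634).

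Of 47 axon guidance genes, 8 were higher and 7 lower, 10 of the 15 in the core. Robo2, a receptor for Slit repellents, had signals of 8.29 and 3.38 in part 1 and 122 and 104 in part 6 (3.56 ± 0.29, adjusted p = 9.37e-05). Efnb2, an ephrin ligand, had signals of 18 and 13.6 in part 1 and 115 and 139.8 in part 6 (2.71 ± 0.26, adjusted p = 0.000249). Another ephrin, Efna1, had the opposite direction, with signals of 126 and 74.3 in part 1 and 0.81 and 5.45 in part 6 (-3.82 ± 0.34, adjusted p = 0.000163), as had the ephrin receptor Epha1, with signals of 170.3 and 206 in part 1 and 9.38 and 14 in part 6 (-3.59 ± 0.24, adjusted p = 2.28e-05). Semaphorins split too, Sema3e being higher by 1.74 ± 0.18 and Sema6a lower by a difference of -2.88 ± 0.35 (adjusted p = 0.000397 and 0.000884). Ephrins and semaphorins were thus represented at both ends by different members.

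Of 52 matrix and integrin genes, 4 were higher and 5 lower, 3 of the 9 in the core. Ptn, the secreted heparin-binding factor pleiotrophin, had signals of 55 and 58.5 in part 1 and 1088 and 1645 in part 6 (4.46 ± 0.28, adjusted p = 1.92e-05). Col13a1, a membrane collagen, had signals of 183 and 109 in part 1 and 13.3 and 27.3 in part 6 (-2.61 ± 0.41, adjusted p = 0.00394). The laminin gene Lamb1, of the basement membrane, differed by -1.34 ± 0.22 (adjusted p = 0.00444), a call lost in the fit of the end arrays alone. Of 34 extracellular proteases and inhibitors, 4 were higher and 7 lower, and 7 and 11 with the embryo as a block. Prss23, a serine protease, had signals of 15.7 and 32.9 in part 1 and 397 and 493 in part 6 (4.03 ± 0.36, adjusted p = 0.000176). Adamtsl2, a secreted protein that binds fibrillin, had signals of 659 and 345 in part 1 and 9.38 and 9.20 in part 6 (-5.13 ± 0.34, adjusted p = 2.41e-05). The inhibitor Timp3 was higher by 1.65 ± 0.18 and the membrane protease Adam12 differed by -2.98 ± 0.43 (adjusted p = 0.000538 and 0.00258).

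Epithelial junction and keratin genes were mostly called at the other end. Of 33 tested, 11 were lower in part 6 and 1 was higher, with a median of -1.46 log2. Of the 12 called, 2 were in the core. Cldn9, a tight junction claudin, had signals of 455 and 576 in part 1 and 152 and 134 in part 6 (-1.81 ± 0.17, adjusted p = 0.000229). Jup, plakoglobin of desmosomes and adherens junctions, had signals of 37 and 34 in part 1 and 2.05 and 1.67 in part 6 (-2.67 ± 0.36, adjusted p = 0.00183). The higher member was Cldn11, with signals of 3.64 and 5.74 in part 1 and 15.5 and 25.1 in part 6 (1.42 ± 0.29, adjusted p = 0.0159), a call lost without part 1 replicate 1 or part 6 replicate 2 (adjusted p up to 0.128). For the epithelial cadherin gene Cdh1, with signals of 106 and 26.8 in part 1 and 0.658 and 2.20 in part 6, part 1 replicate 1 was the highest array, and the call was lost without it or without either part 6 array (adjusted p up to 0.107). The summed surface ectoderm markers given above were highest in that same array.

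**Figure D5:**
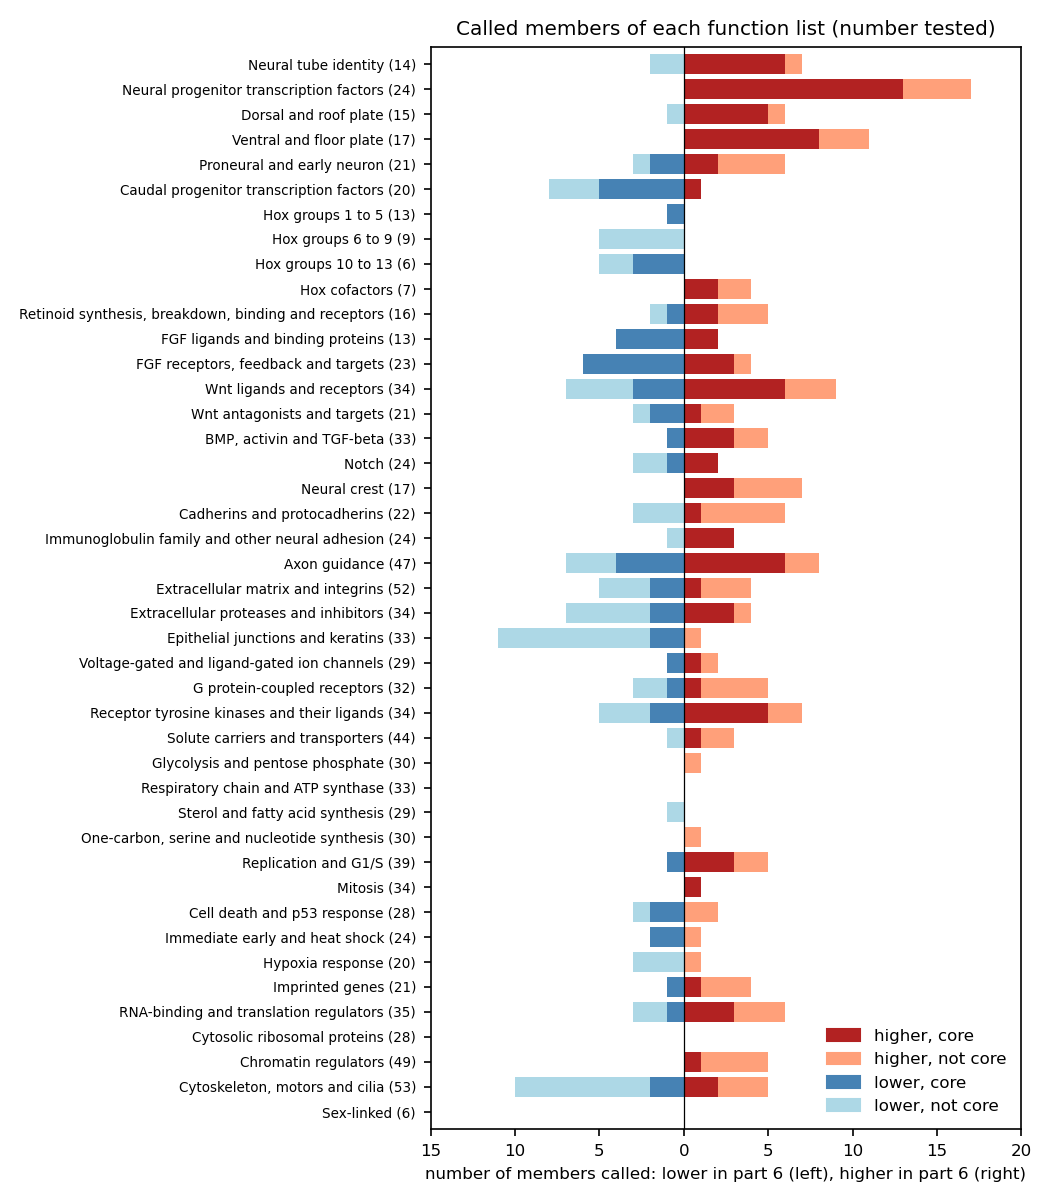
Number of tested members called higher (right of 0) and lower (left of 0) in part 6 in each of the 43 function lists, with the number tested beside the name and the darker section of each bar for genes still called after the loss of any one end array. Lists of neural patterning extend to the right, caudal, Hox and epithelial lists to the left, and those of basic metabolism have few or no calls.

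Of 29 ion channels, 2 were higher and 1 lower, a share of calls near the 9% of all genes. Gabrg1, a GABA receptor subunit, had signals of 2.19 and 5.38 in part 1 and 17.2 and 25.9 in part 6 (1.67 ± 0.23, adjusted p = 0.0018). Cacna1h, a low-voltage calcium channel, had signals of 63.4 and 41 in part 1 and 13.6 and 10.8 in part 6 (-1.74 ± 0.27, adjusted p = 0.00344). The remaining call, the potassium channel gene Kcng1 (1.79 ± 0.34, adjusted p = 0.0109), was lost without part 6 replicate 1 (adjusted p = 0.0763). Of 44 solute carriers and transporters, 3 were higher and 1 lower, again near that share. The cholesterol exporter Abca1 was higher (1.28 ± 0.20, adjusted p = 0.0038), but not called in the fit of the end arrays alone or with probe sets averaged. The other higher ones were the arginine carrier Slc7a1 (0.85 ± 0.20, adjusted p = 0.0281, lost without part 1 replicate 1 or either part 6 array, up to 0.167) and Slc2a1. The lower one was the neutral amino acid carrier Slc1a4 (-1.55 ± 0.27, adjusted p = 0.00689, lost without part 6 replicate 2, 0.0619). The glucose transporter gene Slc2a1 had signals of 1829 and 2521 in part 1 and 4781 and 4785 in part 6 (1.15 ± 0.21, adjusted p = 0.00782), a call lost without part 6 replicate 2 (adjusted p = 0.0562). It was also the single gene called among 30 of glycolysis and the pentose phosphate path, a list that contains it as the supplier of glucose. With the embryo as a block, 5 channels, 7 transporters and 5 glycolysis genes were called.

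Some regulators of the cell cycle differed between the ends, while most genes of both cell cycle lists were not called. Of 39 genes of replication and the G1/S step, 5 were higher and 1 lower, a share of 15.4% beside the 9% of all genes. Of 34 mitosis genes 1 was higher, a share of 2.94%, below that of all genes. The medians were 0.21 log2 for replication and -0.02 for mitosis. Ccnd2, a D-type cyclin, had signals of 1325 and 1116 in part 1 and 3844 and 4103 in part 6 (1.70 ± 0.19, adjusted p = 0.000563). Rb1, the retinoblastoma gene that restrains S-phase entry, had signals of 202 and 190.1 in part 1 and 752 and 766 in part 6 (1.93 ± 0.18, adjusted p = 0.000229). The transcription factor gene E2f2 differed by 1.55 ± 0.20 (adjusted p = 0.00115). The cyclin-dependent kinase inhibitor Cdkn1a, a p53 target, was the lower member, with signals of 132 and 115 in part 1 and 14.1 and 10.8 in part 6 (-2.93 ± 0.24, adjusted p = 8.97e-05). The mitotic gene was Cdc25b, a phosphatase that drives entry into mitosis, with signals of 28.3 and 16 in part 1 and 106 and 85.5 in part 6 (1.95 ± 0.26, adjusted p = 0.00145). Of 28 cell death and p53 response genes, 2 were higher and 3 lower, a share of 17.9%. The caspase Casp6 was among the lower ones, with signals of 459 and 609 in part 1 and 192 and 161 in part 6 (-1.56 ± 0.21, adjusted p = 0.00144). Cdkn1a, given above, is on this list too and is another of the lower genes. The others were Ccng2 (-1.09 ± 0.18, adjusted p = 0.00516, lost without part 6 replicate 2, 0.053), a cyclin relative, Gadd45a (1.56 ± 0.27, adjusted p = 0.00654, lost without part 6 replicate 2, 0.0619), a stress-induced gene, and Zmat3 (0.80 ± 0.17, adjusted p = 0.0185, lost without part 1 replicate 2 or either part 6 array, up to 0.116), a p53 target.

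RNA-binding proteins included 3 muscleblind splicing factors, which did not move together. Mbnl1 was higher in part 6, with signals of 59 and 64.5 in part 1 and 231 and 235 in part 6 (1.84 ± 0.19, adjusted p = 0.000326). Mbnl3 was lower, with signals of 102 and 130.1 in part 1 and 42.3 and 35.7 in part 6 (-1.47 ± 0.25, adjusted p = 0.0062), a call lost without part 6 replicate 2 (adjusted p = 0.0569). Mbnl2 was lower too (-1.27 ± 0.18, adjusted p = 0.0027), with its call lost when probe sets were averaged and in the fit of the end arrays alone. Trim71, a regulator of developmental timing that is a target of the let-7 microRNA, had signals of 320.4 and 284 in part 1 and 830.0 and 899 in part 6 (1.51 ± 0.20, adjusted p = 0.00145). In all, 6 of 35 genes of this list were higher and 3 lower.

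Of 53 cytoskeletal genes, 5 were higher and 10 lower. Tpm1, a tropomyosin of contractile filaments, had signals of 1265 and 529.9 in part 1 and 44.3 and 64.1 in part 6 (-3.83 ± 0.44, adjusted p = 0.000666). Map1b, a microtubule protein of growing axons, had signals of 68.3 and 67.7 in part 1 and 322 and 409.6 in part 6 (2.34 ± 0.30, adjusted p = 0.00119). Of 21 imprinted genes, 4 were higher and 1 lower, with Igf2 as the lower one. Mest, a gene expressed from the paternal copy, had signals of 724 and 680.2 in part 1 and 1932 and 1963 in part 6 (1.47 ± 0.15, adjusted p = 0.000399). The other higher imprinted genes were Plagl1 (0.82 ± 0.18, adjusted p = 0.0237, lost without part 1 replicate 2 or either part 6 array, up to 0.13), Magel2 (1.37 ± 0.33, adjusted p = 0.0328, lost without part 1 replicate 2 or part 6 replicate 2, up to 0.223) and the cell cycle inhibitor Cdkn1c (0.88 ± 0.23, adjusted p = 0.0407, lost without part 1 replicate 2 or either part 6 array, up to 0.188). Of 24 immediate early and heat shock genes, 1 was higher and 2 lower, a share of 12.5% beside the 9% of all genes. Egr1 and Ier3, both induced by growth factor signals, were the lower ones. Egr1 had signals of 55.8 and 40.6 in part 1 and 9.87 and 12 in part 6 (-1.76 ± 0.21, adjusted p = 0.000791). Ier3 had signals of 51.5 and 42.2 in part 1 and 13.8 and 10.1 in part 6 (-1.65 ± 0.24, adjusted p = 0.00293). The transcription factor gene Jun (0.97 ± 0.26, adjusted p = 0.0463, lost without part 1 replicate 2 or part 6 replicate 1, up to 0.246) was the higher one. With the embryo as a block, 6 genes of the list were called.

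Of 49 chromatin regulators, 5 were called (10.2%), a share near the 9% of all genes. All 5 were higher in part 6, and 1 of them was in the core. That was Bmi1, a polycomb protein gene, with signals of 217 and 287 in part 1 and 726 and 578 in part 6 (1.36 ± 0.22, adjusted p = 0.00491). The Bmi1 call was lost in the fit of the end arrays alone. The other four were Satb1 (0.98 ± 0.16, adjusted p = 0.00578, lost without part 6 replicate 1, 0.0501), a chromatin organiser, Chd7 (1.05 ± 0.23, adjusted p = 0.0191, lost without part 1 replicate 2 or part 6 replicate 2, up to 0.147), a chromatin remodeller, Crebbp (0.95 ± 0.23, adjusted p = 0.0333, lost without any one end array, up to 0.22), a histone acetyltransferase, and Kdm6b (0.72 ± 0.18, adjusted p = 0.0352, lost without part 1 replicate 2 or either part 6 array, up to 0.161), a histone demethylase. With the embryo as a block, 8 chromatin regulators were called, 6 higher and 2 lower.

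Few genes of basic metabolism and protein synthesis were called, beside 9% of all genes. Among 33 genes of the respiratory chain and ATP synthase limma called 0, with 4 at an unadjusted p under 0.05, and their differences ran from -0.53 to 0.17 log2. Among 28 cytosolic ribosomal protein genes limma also called 0, with 0 at an unadjusted p under 0.05, over a range of -0.46 to 0.48. With the embryo as a block the counts were 0 and 0. In both lists part 1 replicate 2 had the highest summed signal of the end arrays. The respiratory sums were 62484 and 87282 in part 1 and 62273 and 62363 in part 6. The ribosomal sums were 92628 and 131210 in part 1 and 93781 and 101280 in part 6. Of the 33 and 28 genes, 17 and 12 had the same sign in both embryos. Of 29 genes of sterol and fatty acid synthesis 1 was called, the sterol isomerase Ebp (-0.73 ± 0.17, adjusted p = 0.0269, lost without part 1 replicate 2 or either part 6 array, up to 0.13). Of 30 genes of one-carbon, serine and nucleotide synthesis 1 was called, the purine synthesis enzyme Pfas (0.62 ± 0.16, adjusted p = 0.0421, lost without any one end array, up to 0.224). With the embryo as a block these counts were 2 and 3. Of 20 hypoxia response genes, 1 was higher and 3 lower, and 0 of these were in the core. They were Slc2a1, given above, and the lower Epas1 (-2.14 ± 0.42, adjusted p = 0.0126, lost without part 1 replicate 1 or part 6 replicate 2, up to 0.105), a hypoxia-inducible factor, Ndrg1 (-2.14 ± 0.47, adjusted p = 0.021, lost without part 1 replicate 1 or either part 6 array, up to 0.11) and Bnip3 (-1.0 ± 0.26, adjusted p = 0.0455, lost without any one end array, up to 0.227).

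Outside the lists, genes were taken by the size of the difference. They had to be called, with a named symbol and a mean signal of at least 100 in the higher end. The same sign in both embryos and no overlap of the 4 end arrays were also required, so these 2 traits are no result here. Prdm8, a histone methyltransferase family member of the nervous system, was higher in part 6, with signals of 1.93 and 0.962 in part 1 and 162 and 185 in part 6 (4.92 ± 0.46, adjusted p = 0.000185). So was Ptprz1, a receptor phosphatase that binds pleiotrophin, with signals of 20.8 and 8.09 in part 1 and 269 and 337 in part 6 (4.10 ± 0.39, adjusted p = 0.000229). Ptprz1 and the gene of its ligand Ptn were thus higher in the same piece. Miat, a long noncoding RNA, had signals of 38.3 and 68.2 in part 1 and 804 and 774 in part 6 (3.83 ± 0.29, adjusted p = 5.19e-05). Apela, which encodes a secreted peptide ligand of the apelin receptor, had signals of 86.9 and 75.8 in part 1 and 733 and 810.2 in part 6 (3.18 ± 0.18, adjusted p = 1.03e-05), whereas the receptor gene Aplnr lay at the other end with the reservation given for it. Further genes of this kind were Tox2 and Tox3, of the HMG-box family, which differed by 2.85 ± 0.35 and 2.27 ± 0.23 (adjusted p = 0.000935 and 0.000323).

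Among the genes lower in part 6 outside the lists, Sting1, the adaptor of the cytosolic DNA sensor, had signals of 161 and 169 in part 1 and 1.51 and 0.828 in part 6 (-4.92 ± 0.18, adjusted p = 1.46e-06). Cd40, a receptor best known from B cells, had signals of 404 and 325 in part 1 and 16.8 and 11 in part 6 (-4.34 ± 0.27, adjusted p = 1.92e-05). Ifitm1, an interferon-inducible membrane protein gene also expressed in the early mesoderm, had signals of 2631 and 3358 in part 1 and 605 and 494 in part 6 (-2.43 ± 0.24, adjusted p = 0.000293). Only 3 macrophage and microglia markers were tested, with 0 calls, as given above. Of these, Adgre1 had signals of 37.3 and 23.2 in part 1 and 15.2 and 15.8 in part 6 (limma adjusted p = 0.0849). Cd68 and Csf1r overlapped between the ends. The part of immune cells in these differences was not tested. Ets2, a transcription factor downstream of ERK, had signals of 3661 and 2404 in part 1 and 251 and 180.3 in part 6 (-3.77 ± 0.25, adjusted p = 2.51e-05). The annexins Anxa3 and Anxa5, which bind membrane phospholipids, differed by -3.18 ± 0.33 and -3.33 ± 0.28 (adjusted p = 0.000328 and 0.000104). Scara5, a ferritin receptor, had signals of 450.0 and 517 in part 1 and 7.26 and 6.25 in part 6 (-5.45 ± 0.35, adjusted p = 2.1e-05).

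Antisense transcripts beside caudal homeobox genes moved with their neighbours. Evx1os had signals of 715 and 628 in part 1 and 20.2 and 23.4 in part 6 (-4.69 ± 0.21, adjusted p = 2.5e-06). Hoxa11os had signals of 202 and 211 in part 1 and 2.73 and 1.75 in part 6 (-4.99 ± 0.82, adjusted p = 0.00498), so that both were lower in part 6 in both embryos, as were Evx1 and Hoxa11.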

How the data were processed

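Total RNA from each piece was hybridised to 1 Affymetrix array, per the labels' protocols after biotin labelling with 2 amplification cycles. The deposited values are linear intensities, with 1 signal per probe set. MAS5 is the tool that the submitters' processing notes name, without version or settings. All arrays had an equal trimmed mean, so the authors' values were already scaled, and no normalization was added. Detection calls were not used. The small number of arrays limits the precision.

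The arrays held 45101 probe sets, 64 of them controls. GEO's platform annotation gave 1 symbol for 34958, several for 932 and none for 9211, and only the first kind was used, with 34741 matched to the reference gene table by Entrez identifier. Probe sets above the median of the array in at least 2 of 12 arrays were retained (21679). For each of 12089 genes the one with the largest average log2 signal was used. The offset of 4.43 is 0.25 of the median of all signals (17.7).

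The comparison was run with limma 3.58.1 (R 4.3.3), using 1 coefficient per piece over all 12 arrays, and adjusted by Benjamini-Hochberg over the 12089 genes at 0.05. The fit was tested on simulated data, where it missed part of the changed genes, more so at the smaller change, so a gene that was not called may still differ. Alternatives were other offsets, filters, quantile normalization, averaged probe sets, a trend in the prior, the end arrays alone, the embryo as a block, and each end array left out.

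After subtraction of the piece means, arrays with the same number correlated over genes in each of 15 pairs of pieces (0.175 to 0.325, 0.270 for the ends), and the design text names 2 embryos, so the replicate numbers were taken to pair the arrays. Blocked values are given where they change a count by over 1.5 times.

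The comparison, the 43 function lists, the marker lists and the rule for named genes were chosen with earlier results of these data known. The rule named at most 6 genes of each list, those of smallest p, all members of lists with 5 or fewer calls, the 20 largest differences per direction outside the lists and the 5 with the largest ratio to the standard error, genes with opposite signs in the embryos and sex-linked genes. Not every gene the rule allows is named. Sequences are from RefSeq, GRCm38.p6.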

Additional observations from a re-analysis of the deposited data

Results flagged for a closer look

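For 5 genes the single array pair of one embryo moved one way and that of the other embryo the opposite way by a wide margin. They had the largest such differences among genes with a named symbol, ranked by the smaller of the 2. In all, 33 genes moved by 1 log2 or more in each embryo in opposite ways. The difference between part 6 and part 1 was -1.93 in replicate 1 and 2.39 in replicate 2 for Pigt, 1.79 and -1.79 for Inhbb, -1.72 and 2.06 for Uroc1, 1.69 and -1.98 for Neto1, and 1.63 and -1.81 for Krtap5-1. The difference between the embryos was not tested. None of the 5 was called between the ends by limma (adjusted p from 0.895 for Pigt to 0.999 for Inhbb), and their signals in the end arrays did not exceed 49.9, the highest being that of Uroc1 in part 6 replicate 2. With 2 arrays per piece, no single array could be checked as an outlier within its piece.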

How the results depend on the processing

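The count of 1088 called genes stayed within 1.5 times, from 809 with no filter to 1473 with the embryo as a block, in every setting except the end arrays alone (473) and the loss of a part 6 array, and ranged from 483 to 1290 on leaving out each end array. The count past 1 log2 (802) was 473 with the end arrays alone, 499 with the filter at the 75th percentile and from 476 to 928 on leaving out each end array. The count between parts 5 and 2 (257) was 167 with no filter. The end arrays alone leave fewer samples for the spread, and the stricter filter tests fewer genes; the cause of the other moves was not tested. With the embryo as a block, 1087 of the 1088 genes were called in the same direction, as were 184 of the 184 called genes named in the text. Of these 184, 127 remained called on leaving out any one end array, 140 with the end arrays alone, 162 with no filter, 174 with averaged probe sets, 176 with an offset of 1, and at least 181 with quantile normalization or the trended prior, and none reversed. Of 139 other kept probe sets of the named genes, 134 had the same direction and 82 were called, and no gene had probe sets called in opposite directions. Among genes not called, the difference changed sign for Inhbb with an offset of 1 (-0.012), and on leaving out each end array it ranged from -0.92 to 0.92 for Inhbb, from -1.16 to 0.98 for Krtap5-1, from -1.15 to 0.87 for Neto1, from -1.01 to 1.47 for Pigt, from -0.84 to 1.18 for Uroc1 and from -2.37 to 2.55 for Xist. Of the 54 lists, 28 had a call count that moved by over 1.5 times without part 6 replicate 2. Low signals limit the precision: the lower end was under the offset for 42 higher and 57 lower genes.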
